A study of Mus musculus with 10 samples.

Results

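The neurotrophins Bdnf (brain-derived neurotrophic factor) and Ntf3 (neurotrophin 3) and the receptors Ntrk2 (TrkB), Ntrk3 (TrkC) and Ngfr (p75) were followed across the cell types and neuron groups of the mouse paraventricular thalamus (PVT). These 5 genes were taken by symbol out of the 33502 gene symbols in the deposited count matrix. Nuclei came from punches of the PVT and its surroundings in C57BL/6J mice aged 12 weeks, with the tissue of several mice pooled in each library, so that a library is a pool and not 1 animal. No treatment or genetic change was given for any library. There were 10 libraries, 6 labelled female and 4 whose labels gave no sex. The latter are called male here because the deposited table of nuclei gives Male for all of their nuclei. The 20503 nuclei carry the authors' cluster names, which group into 8 cell types.

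Neurotrophins are secreted proteins made from longer precursors. BDNF binds TrkB and NT-3 binds TrkC, both receptor tyrosine kinases, and all neurotrophins and their precursors bind p75, which has no kinase and partners with sortilin and related receptors. Bdnf is a textbook activity-regulated gene of neurons, and in astrocytes TrkB is known mainly as a shortened form without the kinase. UMIs counted per gene, as here, do not separate the kinase forms of Ntrk2 and Ntrk3 from the shortened ones.

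In GRCm38.p6, the RefSeq assembly that corresponds to mm10, the ligand genes lie on chromosome 2 (Bdnf, 109674700 to 109727043) and chromosome 6 (Ntf3, 126101412 to 126166772). The receptor genes lie on chromosome 13 (Ntrk2, 58806472 to 59133970), chromosome 7 (Ntrk3, 78179986 to 78581034) and chromosome 11 (Ngfr, 95568818 to 95587698). All are protein-coding. Bdnf has 7 transcription starts in the RefSeq promoter table and Ntrk2 has 1. The sequences below are, for Bdnf, the 250 bases before a start and, for Ntrk2, the first 153 of these, since the start in that table lies 97 bases inside the gene as annotated. They are shown because Bdnf and Ntrk2 were the members that were higher in neurons with RNA of activity-regulated genes. Capitals mark TCACGTCA, a form of the cAMP response element, which is the binding site of the factor CREB.
Bdnf, start 3 of 7, plus strand, chr2:109692186-109692435: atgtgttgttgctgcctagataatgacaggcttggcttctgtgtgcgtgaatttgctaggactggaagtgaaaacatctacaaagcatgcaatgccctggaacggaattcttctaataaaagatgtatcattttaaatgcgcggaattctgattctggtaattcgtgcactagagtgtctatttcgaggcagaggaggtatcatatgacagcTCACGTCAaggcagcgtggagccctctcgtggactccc
Ntrk2, plus strand, chr13:58806319-58806471: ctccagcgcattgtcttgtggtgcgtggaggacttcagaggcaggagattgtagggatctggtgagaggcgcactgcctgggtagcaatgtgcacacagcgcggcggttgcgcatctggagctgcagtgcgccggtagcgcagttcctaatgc

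The match in the Bdnf window ends 31 bases before the annotated start. TCACGTCA or its reverse complement TGACGTGA occurs in 0.350% of the 32851 promoter windows of this length. TGACGTCA, its own reverse complement, occurs in 1.55% of them. A site can match only 1 of these forms. The other 6 Bdnf windows and the whole 250-base Ntrk2 window hold neither form. The shares above are per window, whereas every Bdnf window was searched for both forms. Which Bdnf start was used cannot be read from the counts, since all transcripts of the gene were counted together.

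Depth was 5119927 to 55956635 UMIs per library. The median neuron had 5666 to 9770 UMIs in the female libraries and 12586 to 21085 in the male libraries, so that sex and depth cannot be told apart. All 26 marker genes used to check the 8 cell types had their highest level in the type they mark. In all, 46 cell barcodes were found in more than 1 library, in 92 nuclei. The 5 members differed widely in the number of UMIs behind them, with 99112 for Ntrk2, 49017 for Ntrk3, 5762 for Bdnf, 381 for Ntf3 and 22 for Ngfr.

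A level below is in CPM, the UMIs of a gene per 1000000 UMIs summed over the nuclei of 1 class in 1 library, given as the mean ± SD over the libraries with at least 10 nuclei of that class. Differences between classes were tested on the summed counts with edgeR's quasi-likelihood test with library as a block, and each class was set against the average of all remaining ones. A gene was called at a Benjamini-Hochberg adjusted p under 0.05 over all genes and a log2 fold change beyond 0.5. In the comparison of cell types, Ntrk2, Ntrk3 and Bdnf passed the filter on low counts and Ntf3 and Ngfr did not. Of their 24 differences, 9 were called higher and 8 lower, where 41.7% of the differences of all genes were called.

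Bdnf was the ligand with the most RNA and was highest in neurons. In neurons its lowest, median and highest library values were 29.9, 44.5 and 56.1 CPM (mean 44.0 ± 8.64, SD, n = 10). In astrocytes they were 3.24, 11.3 and 18.5 CPM (12.2 ± 5.24, n = 10), so that every neuron value lay above every astrocyte value. The call in neurons was 2.50 ± 0.20 (log2 fold change ± SE, adjusted p = 3.96e-19, edgeR), where 29.7% of all genes tested were called higher. Bdnf was not called in any of the other 7 cell types. Among those, the mean level was between 4.91 CPM in oligodendrocyte precursor cells (OPCs) and 14.6 CPM in endothelial cells. The OPC, endothelial, ependymal and fibroblast values each came from 25 UMIs or fewer, with several libraries at 0.

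RNA of neuronal genes was also counted in nuclei of other types. The level of Bdnf in astrocytes was 27.6% of that in neurons. In the same astrocyte sums, the PVT marker C1ql3 reached 20.7% of its neuronal level, and the 3 general neuronal markers Snap25, Syt1 and Rbfox3 reached 13.1%, 7.21% and 6.38%. In oligodendrocytes the values were 17.2% for Bdnf and 30.9% for C1ql3. The part of free neuronal RNA in the low Bdnf levels outside neurons was not tested.

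The share of nuclei with a Bdnf UMI was compared at equal depth. Nuclei under 2000 UMIs were left out, 197 of 10410 neurons, 994 of 5302 astrocytes and 847 of 2462 oligodendrocytes, and the others were thinned to 2000. Then 7.36% ± 1.93 (SD, n = 10 libraries) of neurons had a Bdnf UMI. The share was 1.89% ± 0.998 in astrocytes and 0.732% ± 1.42 in oligodendrocytes. In the other 5 types it was between 0% and 2.63%, from 94 to 563 nuclei each. Before thinning, 24.7% of neurons had one, at a median of 11157 UMIs, against 1.68% of oligodendrocytes at a median of 2321 UMIs.

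Ntf3, the ligand of TrkC, was sparse. Its neuronal level was 3.23 ± 1.09 CPM (lowest 1.57, median 3.09, highest 5.27, n = 10). Of its 381 UMIs, 361 came from neurons, which also held most UMIs of all genes (126074820, against 17039028 in astrocytes, the next type). Astrocytes had 1.16 ± 1.45 CPM from 12 UMIs and microglia 1.48 ± 3.16 CPM from 2 UMIs. No Ntf3 UMI was found in endothelial cells, ependymal cells or fibroblasts. A count of 0 allows 4.18, 1.30 and 5.99 CPM over those 3 types, limits that lie above the neuronal level in endothelial cells and fibroblasts. In a fit without the filter on low counts, Ntf3 was called higher in neurons (3.74 ± 0.50, log2 fold change ± SE, adjusted p = 4.41e-11, edgeR), where that fit called 40.8% of all genes in either direction. The average it was set against includes the 3 types with 0 UMIs. At such counts the size of the fold change depends on the prior count of the fit.

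Ntrk2 was highest in astrocytes. Its lowest, median and highest library values were 1172, 1400 and 1564 CPM in astrocytes (1407 ± 113, n = 10) and 508, 793 and 1283 CPM in ependymal cells (811 ± 215, n = 9). OPCs had 602 ± 71.0 CPM (n = 9) and neurons 546 ± 61.4 CPM (n = 10). The astrocyte and ependymal ranges overlapped at female replicate 1, whose ependymal value of 1283 CPM stood apart from the other female libraries. The log2 fold change was 2.51 ± 0.13 (SE) in astrocytes and 1.54 ± 0.15 in ependymal cells (adjusted p = 1.29e-28 and 7e-15, edgeR). Of all genes, 21.4% and 26.7% were called higher in these types.

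The mean level of Ntrk2 was 202 CPM or less in fibroblasts, endothelial cells, microglia and oligodendrocytes, and Ntrk2 was called lower in all 4, where 9.12%, 20%, 27.4% and 26% of all genes were. Oligodendrocytes, with 121 ± 36.9 CPM, had the lowest mean. The neuronal level of Ntrk2 was 38.8% of that in astrocytes, while the 5 astrocyte markers stood in neurons at 0.793% (A2m) to 12.5% (Slc1a2) of their astrocyte level. At 2000 UMIs per nucleus, with the same nuclei left out, 90.4% ± 2.82 of astrocytes, 59.7% ± 6.45 of neurons and 18.1% ± 7.50 of oligodendrocytes had an Ntrk2 UMI.

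Ntrk3 had another order. It was highest in OPCs, with a lowest, median and highest library value of 468, 623 and 674 CPM (593 ± 71.1, n = 9), and in fibroblasts, with 216, 510 and 753 CPM (509 ± 178, n = 8, 253 UMIs). Astrocytes had 311 ± 82.2 CPM and neurons 292 ± 42.0 CPM. The OPC values lay above all neuron values, whereas the fibroblast values overlapped both. The log2 fold change was 2.43 ± 0.17 (SE) in OPCs and 1.82 ± 0.23 in fibroblasts (adjusted p = 5.61e-21 and 8.76e-10, edgeR), where 19.2% and 11.2% of all genes were called higher. Ntrk3 was called lower in oligodendrocytes, microglia, endothelial cells and ependymal cells, where its mean level was 78.6 CPM or less. In ependymal cells 19.2% of all genes were called lower. Oligodendrocytes had 35.4 ± 16.1 CPM, so that the precursor and the mature cell of this lineage were at opposite ends of the order of mean levels for Ntrk3. Microglia shared the low end, at 36.7 ± 50.3 CPM.

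Neurons were thus called higher for all 3 of the tested members, with the receptors at 1.02 ± 0.14 (Ntrk2) and 1.40 ± 0.16 (Ntrk3, log2 fold change ± SE). Oligodendrocytes, microglia and endothelial cells were called lower for both receptors. The median fold change of all genes was -0.20 in fibroblasts, -0.19 in endothelial cells and -0.10 in microglia, and within 0.06 of 0 in the other types.

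Ngfr was close to absent from these nuclei. Of its 22 UMIs, each in a different nucleus, 10 were in oligodendrocytes, 8 in neurons and 2 in fibroblasts, with 1 each in microglia and OPCs. Astrocytes had 0 UMIs in 5302 nuclei, which allows a share of up to 0.0566% with a UMI, or 0.176 CPM. These limits cover counting error only. The mean level was 1.51 ± 1.81 CPM in oligodendrocytes, where 4 of 10 libraries were at 0. Fibroblasts had the highest mean, 4.90 ± 10.2 CPM, but from 2 UMIs and with 6 of 8 libraries at 0. In the fit without the filter Ngfr was called higher in oligodendrocytes (2.96 ± 0.72, log2 fold change ± SE, adjusted p = 0.000413, edgeR; 23.6% of all genes were called), a fold change that at such counts depends on the prior count of the fit.

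**Figure D1:**
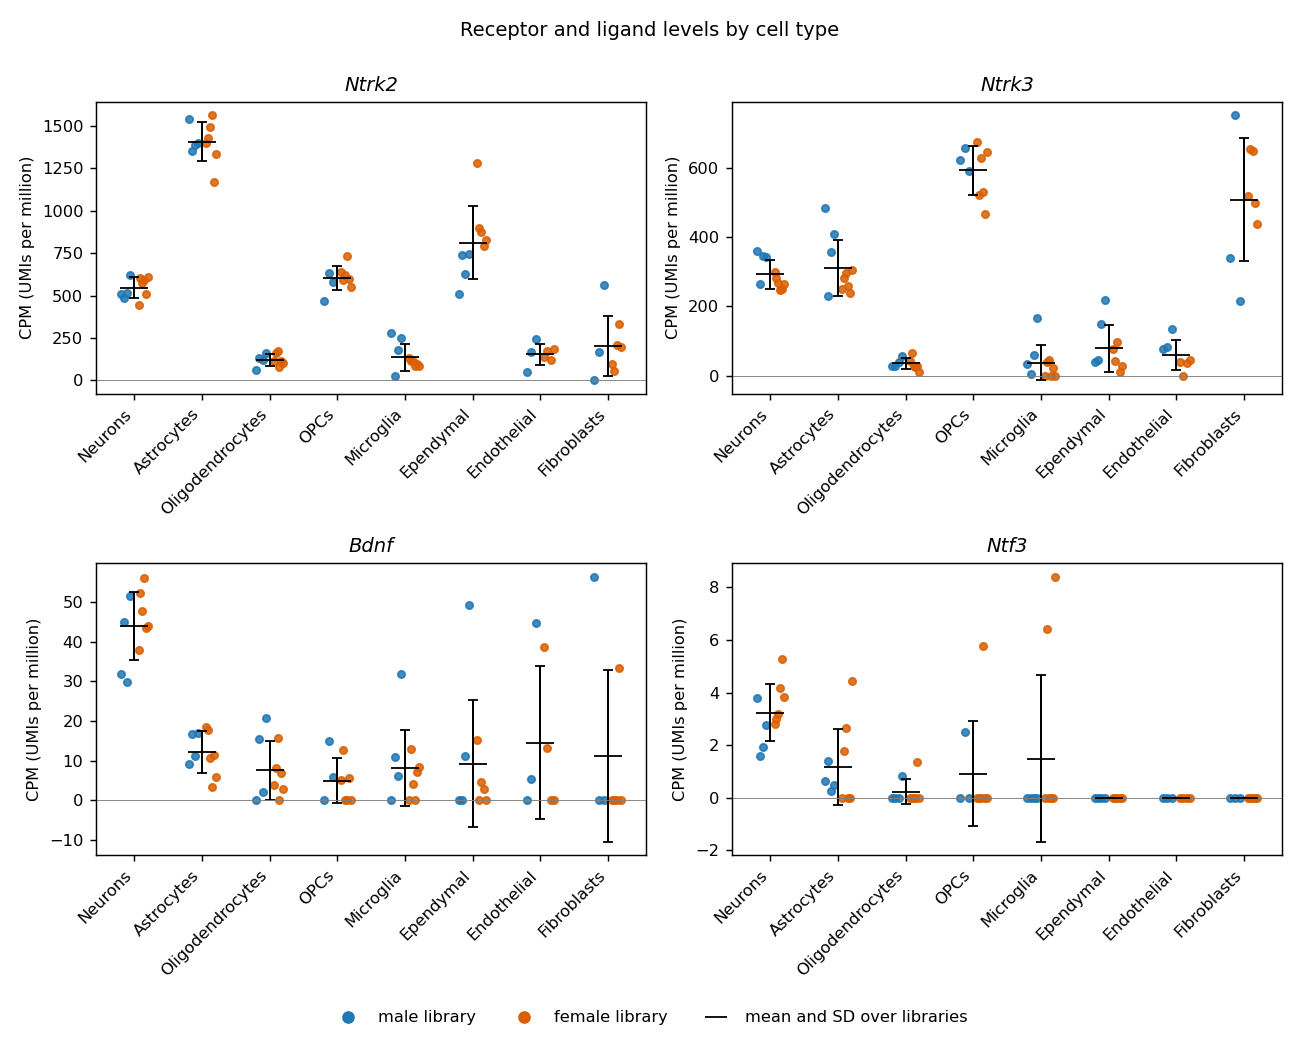
Level of Ntrk2, Ntrk3, Bdnf and Ntf3 in CPM (vertical axes, starting near 0) in 8 cell types, 1 point per library with at least 10 nuclei of the type, male and female libraries in different colours, and black bars for the mean and SD. Ntrk2 is highest in astrocytes (mean 1407 CPM), Ntrk3 in OPCs (593 CPM) and fibroblasts (509 CPM), and Bdnf (44.0 CPM) and Ntf3 (3.23 CPM) in neurons.

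Neighbours in the order of mean levels were compared over the libraries that held both types, with an exact two-sided sign-flip permutation test on log2(CPM + 1). None of the 31 neighbouring pairs passed after Benjamini-Hochberg adjustment over all of them, and 8 had an unadjusted p under 0.05. The smallest exact p that 10 libraries allow in this test is 0.00195, so that no pair could pass on its own. The astrocyte level of Ntrk2 was above the ependymal level in 9 of 9 libraries (difference 0.83 ± 0.40, SD, exact p = 0.00391, the smallest that 9 libraries allow, adjusted 0.0605). The OPC level of Ntrk2 was above that of neurons in 5 of 9 libraries (0.13 ± 0.23, exact p = 0.137). For Ntrk3, OPCs and fibroblasts did not differ beyond their spread (0.29 ± 0.60, higher in 5 of 8 libraries, exact p = 0.266), nor did astrocytes and neurons (0.06 ± 0.21, higher in 7 of 10 libraries, exact p = 0.379). The same held at the low end for microglia and oligodendrocytes (-1.46 ± 2.48, microglia higher in 4 of 10 libraries, exact p = 0.107).

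The genes whose levels ran most like those of a member were found by Pearson's correlation of log2(CPM + 1) over 73 sums of a library and a cell type, among 9475 genes. These points share libraries and differ in depth, and the values are a description. Closest to Ntrk2 were Adgrb3 (r = 0.87), Ppp2r2b (0.87) and Gabrb1 (0.87). Closest to Ntrk3 were Dok6 (0.84), Alcam (0.81) and Rtl4 (0.80). Closest to Bdnf were Chga (0.63), Crb1 (0.63) and Cit (0.59).

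Within neurons, the authors' 8 clusters showed different orders for each gene. The marker C1ql3 was at 360 CPM or above in Neurons (1), (2) and (4), and Adarb2, which marks the mediodorsal thalamus, was at 1872 CPM in Neurons (3). Neurons (6) held the habenula markers Nwd2 (6951 CPM) and Tac2 (1196 CPM). Because these clusters were made from the same nuclei and genes, their values are given without a test. The cell types tested above come from the same cluster names, and this limit holds for their p-values too.

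Bdnf was 72.8 ± 29.1 CPM in Neurons (7), 63.1 ± 13.6 in Neurons (1), 61.8 ± 21.5 in Neurons (2) and 61.7 ± 28.8 in Neurons (5). It was 13.0 ± 5.19 CPM in Neurons (3), 7.29 ± 4.50 in Neurons (6) and 5.88 ± 4.52 in Neurons (4). Neurons (4), although a C1ql3 cluster, thus had the lowest mean of the 8, below the 12.2 CPM of astrocytes. Ntf3 took another course, with 9.55 ± 6.26 CPM in Neurons (8), 8.09 ± 5.07 in Neurons (7) and 4.98 ± 1.47 in Neurons (3), and 3.84 CPM or less in the other clusters.

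Ntrk2 was between 516 and 699 CPM in 7 of the clusters and 134 ± 45.3 CPM in Neurons (6). The highest library value in Neurons (6) was 231 CPM, below the lowest value of any other cluster (398 CPM). Ntrk3 was lowest in Neurons (3), with 75.5 ± 18.1 CPM, followed by Neurons (7) with 152 ± 46.2 and Neurons (8) with 224 ± 45.8. In the remaining 5 clusters it was 321 to 458 CPM. Neurons (3) therefore combined a high Ntrk2 level (605 ± 55.6 CPM) with the lowest Ntrk3 level, and Neurons (6) the reverse (Ntrk3 363 ± 57.5 CPM).

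**Figure D2:**
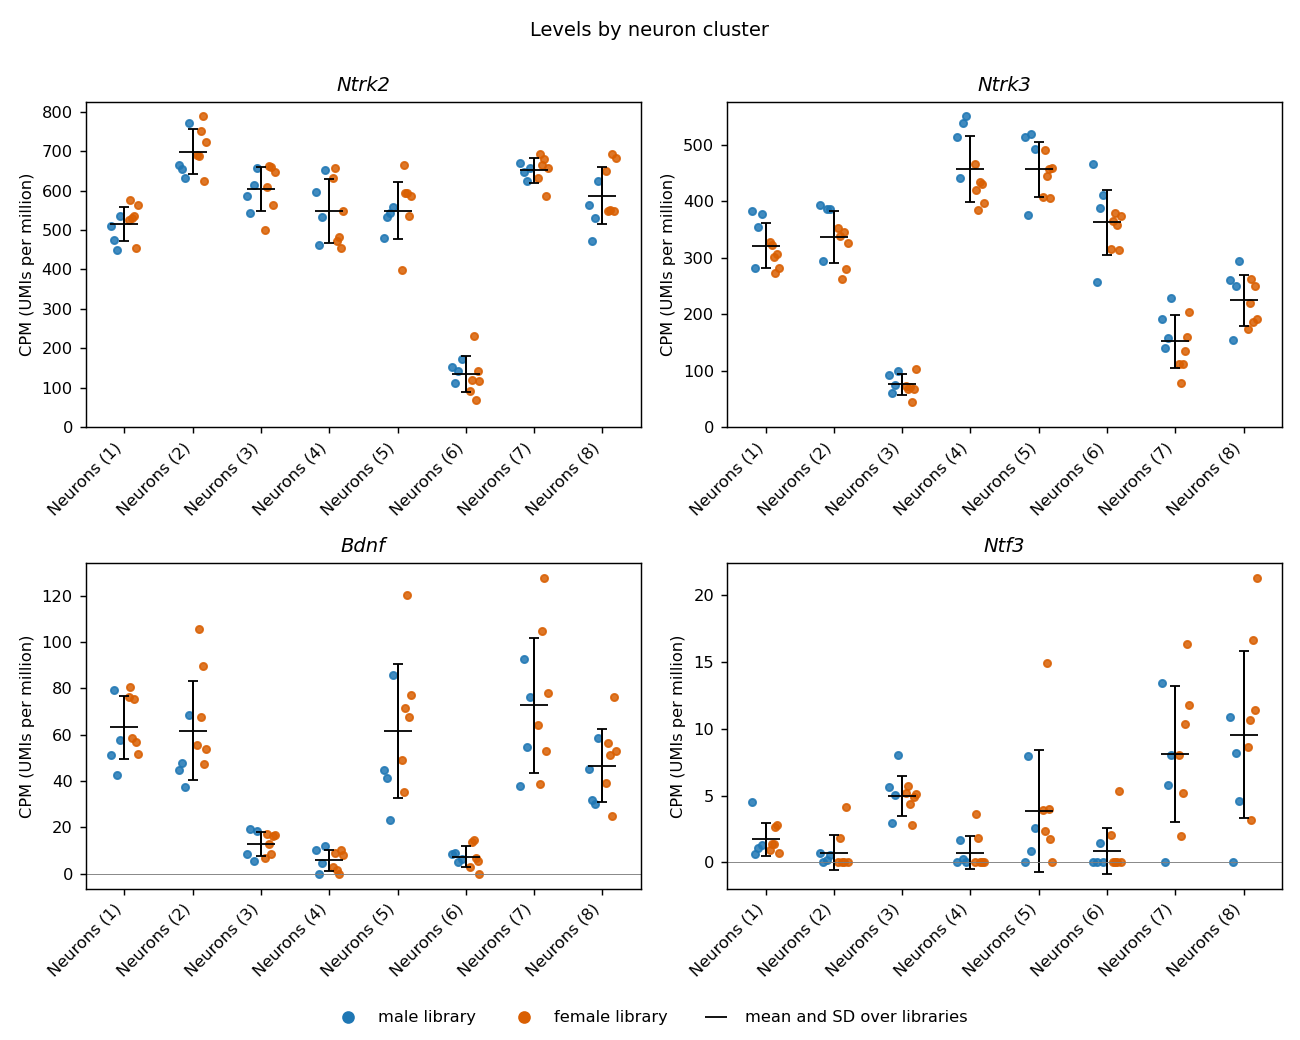
Level of Ntrk2, Ntrk3, Bdnf and Ntf3 in CPM (vertical axes) in the 8 neuron clusters of the authors, 1 point per library, with the mean and SD in black. Ntrk2 is low in Neurons (6) (134 CPM), Ntrk3 in Neurons (3) (75.5 CPM), and Bdnf in Neurons (3), (4) and (6) (13.0, 5.88 and 7.29 CPM).

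Over the 80 sums of a library and a neuron cluster, among 10872 genes, the closest patterns were those of Arpp21 (r = 0.97), Unc5c (0.95) and Fam168a (0.94) for Ntrk2. For Ntrk3 they were Zbtb20 (0.89), Zfp536 (0.89) and Pak7 (0.89), and for Bdnf Pak3 (0.83), Adgrl3 (0.82) and Arhgap20 (0.80). As above, the points share libraries.

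To compare regions by a rule that uses no member, the 10307 neurons with over 1000 genes were grouped by the marker that stood highest in them relative to its mean. This put 2777 in the C1ql3 group (PVT), 1680 in the Adarb2 group, 815 in the Nwd2 group and 313 in the Gad2 group, and left 4722 in none. Gad2 encodes an enzyme of GABA synthesis. Its group was mixed, since 123 of its 313 nuclei came from Neurons (5) and its sums held the PVT marker C1ql3 at 212 CPM beside 33.3 CPM of Gad1. Of 12 differences of Bdnf, Ntrk2 and Ntrk3 between these groups, 6 were called higher and 3 lower, where 25.9% of the differences of all genes were called. Each group was set against the mean of the others, so these calls are not independent.

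Bdnf was 61.8 ± 14.3 CPM in C1ql3 neurons (lowest 40.1, median 64.9, highest 86.7, n = 10). It was 22.8 ± 8.69 CPM in Adarb2 neurons (12.4, 21.8 and 40.9, n = 10) and 9.02 ± 8.23 CPM in Nwd2 neurons (0, 6.35 and 30.5, n = 10). The C1ql3 and Nwd2 ranges did not overlap, and the C1ql3 and Adarb2 ranges met only at their ends. The log2 fold change was 1.67 ± 0.16 (SE) in C1ql3 neurons (adjusted p = 3.28e-12, edgeR; 12.4% of all genes were called higher). It was -2.22 ± 0.28 in Nwd2 neurons (adjusted p = 4.63e-09; 21.7% were called lower). Bdnf was not called in the Adarb2 group (-0.08 ± 0.20, adjusted p = 0.772, edgeR). That group was mixed as well, with 1008 nuclei from Neurons (3), 301 from Neurons (7) and 252 from Neurons (8). The mean Bdnf level of these whole clusters was 13.0, 72.8 and 46.7 CPM, so the Adarb2 value averages over unlike clusters.

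In the Gad2 group Bdnf was 47.7 ± 40.8 CPM (lowest 5.99, median 32.7, highest 128, n = 8) and was not called (0.62 ± 0.26, log2 fold change ± SE, adjusted p = 0.0971, edgeR). It was called there without the filter, with DESeq2, without male replicate 2, in the female libraries alone and with markers at 1 UMI (0.60 to 1.73). With the group limited to Neurons (5), an alternative added after the data were seen, 3 libraries remained and the value was -0.52 (adjusted p = 0.691).

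Ntrk2 was 134 ± 23.1 CPM in Nwd2 neurons (lowest 107, median 129, highest 189, n = 10). It was 567 ± 52.3 in C1ql3, 614 ± 46.9 in Adarb2 and 621 ± 80.5 in Gad2 neurons, with a lowest library value of 484.5 CPM over these 3 groups. The Nwd2 range overlapped that of oligodendrocytes (58.2 to 172 CPM). The fold change in Nwd2 neurons was -2.13 ± 0.08 on the log2 scale (SE, adjusted p = 1.01e-26, edgeR). The other 3 groups were called higher, at 0.57 (C1ql3), 0.68 (Gad2) and 0.88 (Adarb2). Each of these 3 was set against a mean that includes the low Nwd2 group, and their library ranges overlapped. In Gad2 and Adarb2 neurons 9.78% and 13.8% of all genes were called higher. Slc1a2, an astrocyte marker that was also counted in neurons, moved with Ntrk2, at 82.5 ± 47.0 CPM in Nwd2 neurons and 294 to 350 CPM in the other groups. Over all neurons Slc1a2 stood at 12.5% of its astrocyte level, the highest of the astrocyte markers used. The remaining markers, A2m, Agt, Aqp4 and Gfap, stood at 0.793% (A2m) to 4.34% (Gfap), and Ntrk2 at 38.8%. Their levels in the regional groups are not given here. The part of free RNA in the Ntrk2 difference between the groups was not tested.

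Ntrk3 was 111 ± 23.3 CPM in Adarb2 neurons (lowest 74.7, median 117, highest 147, n = 10). It was 366 ± 43.8 CPM in C1ql3 neurons, 429 ± 82.8 in Gad2 neurons and 354 ± 72.3 in Nwd2 neurons, all of whose library values were 253 CPM or more. The Adarb2 range thus lay apart from the other 3. The log2 fold change in Adarb2 neurons was -1.61 ± 0.08 (SE, adjusted p = 2.55e-21, edgeR; 14.9% of all genes were called lower). Ntrk3 was called higher in Gad2 (0.68 ± 0.09) and C1ql3 neurons (0.53 ± 0.07). Both groups were set against means that include the low Adarb2 group, and their ranges overlapped that of Nwd2 neurons. The C1ql3 value fell under the threshold of 0.5 in the female libraries alone (0.47) and with Gad2 neurons limited to Neurons (5) (0.49).

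Ntf3 did not pass the filter here. Its level was 4.58 ± 2.84 CPM in Adarb2 neurons (138 UMIs), 4.92 ± 4.72 in Gad2 neurons (15 UMIs), 1.59 ± 1.01 in C1ql3 neurons (42 UMIs) and 0.924 ± 1.97 in Nwd2 neurons (6 UMIs), and these ranges overlapped. Without the filter it was called higher in Adarb2 neurons (1.67 ± 0.27, log2 fold change ± SE, adjusted p = 8.58e-09, edgeR) and lower in C1ql3 (-1.06 ± 0.36, adjusted p = 0.0172) and Nwd2 neurons (-1.61 ± 0.51, adjusted p = 0.00674). That fit called 17.9%, 13.4% and 25.3% of all genes in these groups. Ngfr had 3 UMIs in the Gad2 group, 1 in the Nwd2 group and 0 in the C1ql3 and Adarb2 groups.

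The C1ql3 neurons were then split by the PVT subtype markers Col12a1 (PVT2, 497 nuclei), Cadps2 (PVT3, 409 nuclei) and Npsr1 (PVT4, 141 nuclei), with 1581 neurons that had under 2 UMIs of each as a further group. The Npsr1 neurons also held Cadps2, at 444 CPM against 1207 CPM in the Cadps2 group. Of 12 differences, 2 were called higher and 1 lower, all of them in Bdnf, where 9.11% of the differences of all genes were called.

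Bdnf separated these groups. It was 67.5 ± 15.6 CPM in Col12a1 neurons (lowest 39.99, median 68.7, highest 90.6, n = 10) and 77.7 ± 16.8 in the neurons with none of the 3 markers (53.5, 83.0 and 93.8, n = 10). In Cadps2 neurons it was 12.9 ± 8.69 CPM (0, 12.0 and 31.4, n = 9). The 5 libraries with at least 10 Npsr1 nuclei had 4.28, 8.11, 24.5, 24.95 and 27.0 CPM. Every Cadps2 and Npsr1 value was below every Col12a1 value.

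The log2 fold change of Bdnf was 1.47 ± 0.12 (SE) in neurons with none of the 3 markers and 1.15 ± 0.14 in Col12a1 neurons (adjusted p = 4.77e-17 and 1.93e-10, edgeR), where 3.27% and 5.94% of all genes were called higher. It was -1.89 ± 0.21 in Cadps2 neurons (adjusted p = 1.65e-11; 6.67% were called lower). The Npsr1 difference was not called (-0.73 ± 0.27, adjusted p = 0.0862). It passed without male replicate 3 (-1.32), without the library block (-1.05) and with no margin over the next marker (-0.73).

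The receptors did not follow Bdnf across the subtypes. Ntrk2 was 474 ± 95.4 CPM in Col12a1, 556 ± 79.4 in Cadps2, 664 ± 175 in Npsr1 and 576 ± 56.4 in the remaining neurons. These ranges overlapped. The differences in Col12a1 (-0.33 ± 0.06, log2 fold change ± SE, adjusted p = 9.58e-06, edgeR) and Npsr1 neurons (0.38 ± 0.08, adjusted p = 0.000532) were smaller than the threshold of 0.5. Ntrk3 was 341 to 442 CPM in the 4 groups, with its highest mean in Cadps2 neurons (0.27 ± 0.06, adjusted p = 0.000129). Ntf3 had 40 UMIs or fewer over the 4 groups and Ngfr had 0.

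**Figure D3:**
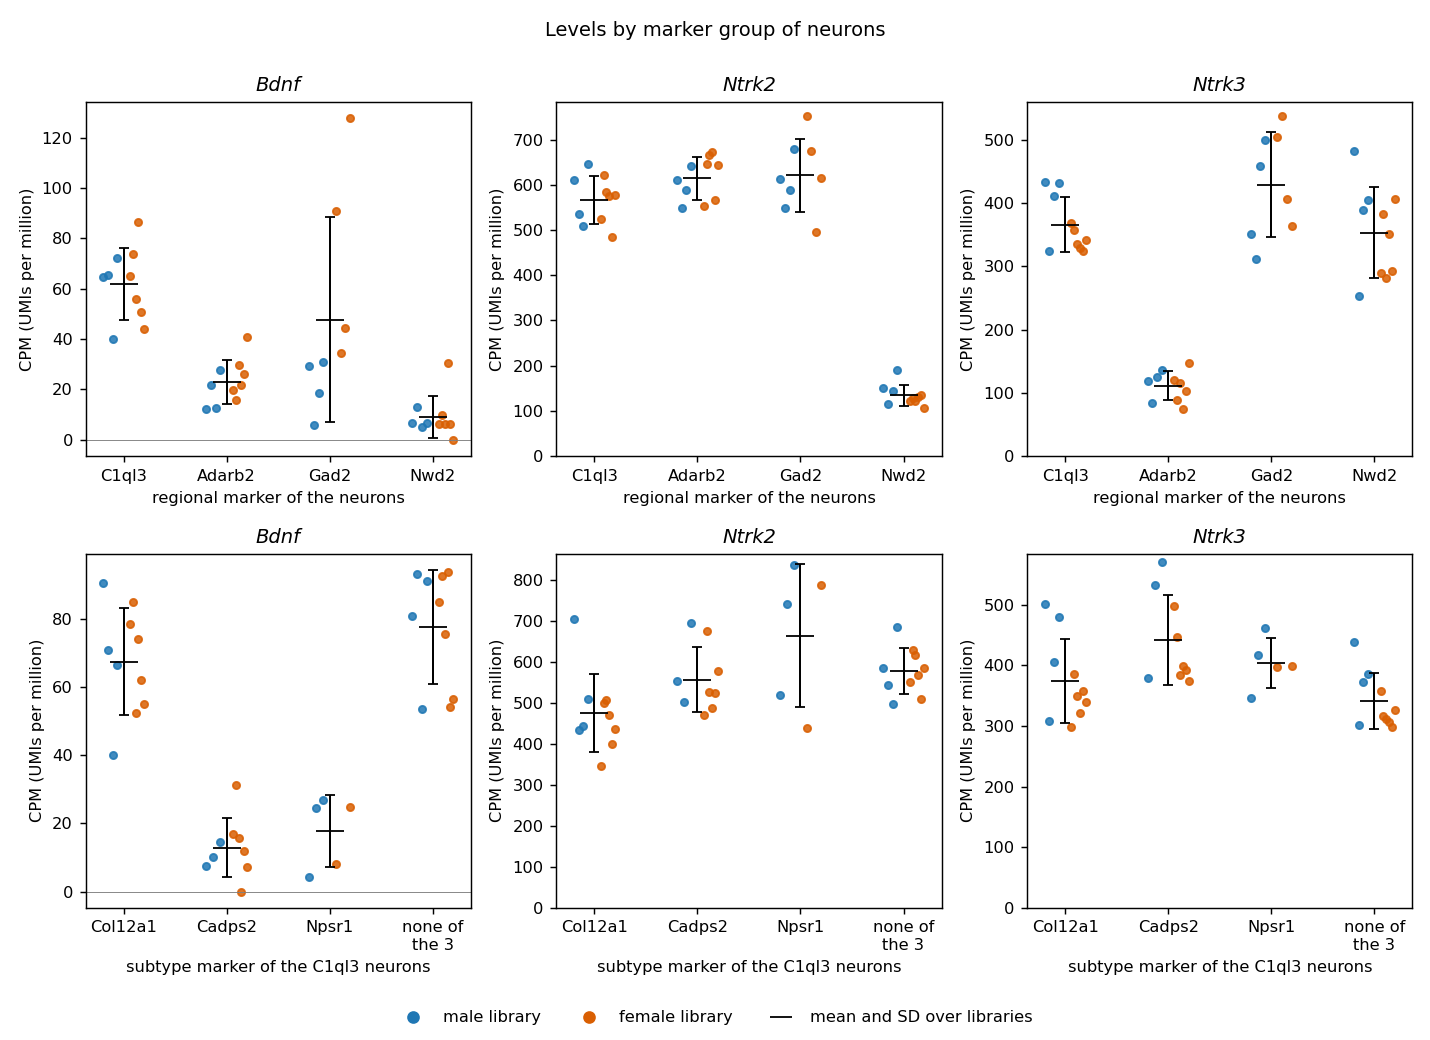
Level of Bdnf, Ntrk2 and Ntrk3 in CPM (vertical axes) in neurons grouped by regional markers (upper row) and in C1ql3 neurons grouped by PVT subtype markers (lower row), 1 point per library with at least 10 nuclei, with the mean and SD in black. Bdnf is low in Nwd2 (9.02 CPM) and Cadps2 neurons (12.9 CPM), Ntrk2 in Nwd2 neurons (134 CPM) and Ntrk3 in Adarb2 neurons (111 CPM).

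C1ql3 neurons were also compared by RNA of the activity-regulated genes Fos, Fosb, Junb, Npas4, Egr4, Btg2, Nr4a1 and Arc, none of which is a member. Neurons with a UMI of at least 3 of these 8 genes are called active (329 nuclei) and those with at most 1 quiet (2257 nuclei). The median depth was 13591 UMIs in active and 10775 in quiet neurons. No label gives a stimulus, so these names stand for the RNA only. Of the 3 members tested, Bdnf and Ntrk2 were called higher and none lower, where 2.32% of all genes were called higher.

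Bdnf was 66.6, 137 and 169 CPM in active neurons (lowest, median and highest, mean 124 ± 39.1, n = 7) and 35.1, 51.2 and 71.5 CPM in quiet neurons (51.2 ± 11.1, n = 10). It was higher in active neurons in 7 of 7 libraries, by 1.73 to 3.63 times, although the ranges met at their ends. The log2 fold change was 1.23 ± 0.11 (SE, adjusted p = 8.06e-16, edgeR). Bdnf was among the 249 genes called higher of 10751 tested. Whether genes with a CREB-type site were called more often than others was not tested. Ntrk2, whose window holds neither form of the site, was called higher as well.

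Ntrk2 rose less. It was 605, 752 and 901 CPM in active neurons (750 ± 123, n = 7) and 453, 535 and 594 CPM in quiet neurons (529 ± 50.7, n = 10), with no overlap. It was higher in 7 of 7 libraries, by 1.19 to 1.75 times (0.54 ± 0.06, log2 fold change ± SE, adjusted p = 3.65e-11, edgeR). This lies close to the threshold of 0.5, and without male replicate 2 (0.489) or without the filter (0.499) it was not called. Ntrk3 was 367 ± 61.3 CPM in active and 370 ± 48.3 CPM in quiet neurons, higher in 3 of 7 libraries (0.01 ± 0.07, adjusted p = 0.97).

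The subtypes were not equally frequent in these groups, with 17 Cadps2 neurons among the active and 372 among the quiet. Within the neurons that had none of the 3 subtype markers, an alternative added after the data were seen, 201 active and 1274 quiet nuclei remained in 5 and 10 libraries. There the Bdnf level was 119 ± 54.9 against 68.2 ± 15.5 CPM (0.85 on the log2 scale, adjusted p = 2.51e-06, edgeR) and that of Ntrk2 770 ± 153 against 534 ± 56.8 CPM (0.57, adjusted p = 1.61e-08), both higher in 5 of 5 libraries. All 1581 neurons with none of the 3 markers were still mixed, with 1028 nuclei from Neurons (1) and 435 from Neurons (2). The mean Ntrk2 level of these whole clusters was 516 and 699 CPM. The part of this mix in the difference between active and quiet neurons was not tested. In another alternative, nuclei were thinned to 2000 UMIs for the grouping only, and the full counts were summed. The group rule changed as well, to at least 2 of the activity-regulated genes for active and none for quiet. The values were then 0.91 for Bdnf and 0.53 for Ntrk2, and both were called.

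**Figure D4:**
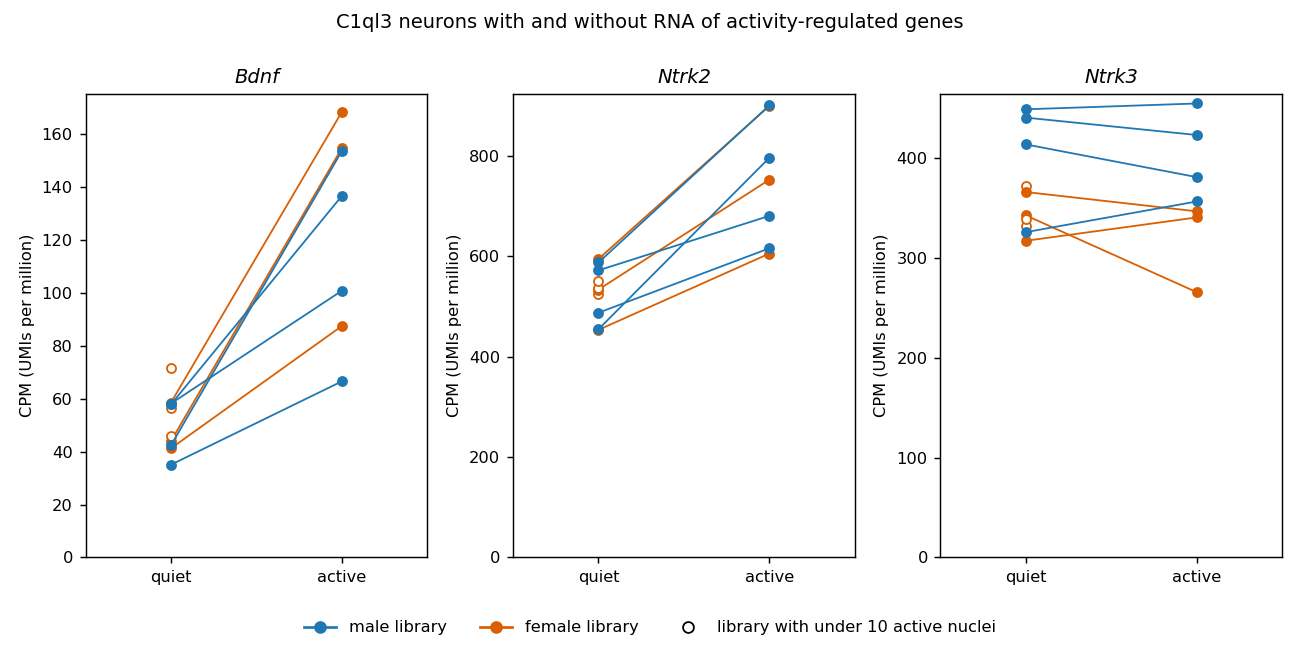
Level of Bdnf, Ntrk2 and Ntrk3 in CPM (vertical axes, starting at 0) in quiet and active C1ql3 neurons, with a line for each library that held at least 10 nuclei of both and an open point for a library with quiet neurons only. Bdnf and Ntrk2 are higher in active neurons in 7 of 7 libraries, and Ntrk3 in 3 of 7.

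Apart from sample and replicate names, the labels set the libraries apart only by sex, which they give for the 6 female libraries. Sex cannot be told apart from depth or from the set of genes counted, since the 13 mitochondrial genes had UMIs only in the female libraries. Of the 4 members that passed the filter in neurons, 1 was called, where 8.57% of all genes were called lower in female libraries. Ntrk3 was 268.7 ± 19.9 CPM in the 6 female and 328 ± 42.5 CPM in the 4 male libraries (female against male -0.38 ± 0.11, log2 fold change ± SE, adjusted p = 0.0374, edgeR). This call was lost when any of 8 of the 10 libraries was left out (-0.32 to -0.40 in those fits). Neuronal levels were 46.9 ± 6.57 and 39.6 ± 10.5 CPM for Bdnf and 555 ± 66.1 and 532 ± 60.2 CPM for Ntrk2, in female and male libraries, and neither was called (0.15 ± 0.18 and -0.03 ± 0.14). Ntf3 was 3.71 and 2.52 CPM and was not called (0.46 ± 0.30).

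In astrocytes none of the 3 members tested was called with edgeR (0 at an adjusted p under 0.05), where 13.6% of all genes were. Ntrk3 was 272 ± 26.5 CPM in female and 370 ± 107 CPM in male astrocytes (-0.44 ± 0.18, unadjusted p = 0.0248, adjusted 0.111). It was called there only without male replicate 2 (-0.60, adjusted p = 0.00678). Whether a difference between cell types itself differed between female and male libraries was tested with an interaction term in edgeR. None of 24 such terms passed at an adjusted p under 0.05, and 3 had an unadjusted p under 0.05. The lowest p was that of Bdnf in neurons, at 1.21 ± 0.50 (log2 difference ± SE, adjusted p = 0.238), where 1.54% of all genes passed.

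A list of 47 other genes of neurotrophin signalling was counted in the same fits, and 46 of them were found in the files. Of the ligands, Ntf5 had 6 UMIs. In the cell type fit, 36 of the list were tested. In neurons 11 were called higher and 12 lower, with a median log2 fold change of -0.12 beside 0.02 for all genes, where 57.2% of all genes were called. Among the 9 receptors and co-receptors tested, 6 were higher and 1 lower in neurons, whereas of the 18 adaptors and signalling genes 1 was higher and 9 lower.

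The co-receptor Lingo1 was 232 CPM in neurons and 101.6 CPM or less elsewhere (2.38 ± 0.13, log2 fold change ± SE, adjusted p = 5.61e-27, edgeR). Shc3, the neuronal Shc adaptor, and Pcsk5, a convertase that cleaves precursors, followed at 2.27 each. The docking protein Gab1 was the lowest of the list in neurons, at 9.4 CPM against 594 CPM in oligodendrocytes (-4.39 ± 0.14 in neurons). Pik3r1 and Lrig1 were next, at -2.63 and -2.35.

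Astrocytes, the cells with the most Ntrk2, had 11 of the 36 higher and 8 lower, with a median of 0.04, beside -0.01 for all genes (41.2% called). Lrig1, a membrane protein that restrains receptor tyrosine kinases, was 525 CPM there and 92.8 CPM or less elsewhere (4.25 ± 0.12, log2 fold change ± SE, adjusted p = 2.08e-44, edgeR). Sorcs2, a sortilin-family partner of p75, was 369 CPM (2.65), and the convertase Pcsk6 136 CPM (2.19). The sortilin-family genes Sorcs1 (-3.10) and Sorcs3 (-2.38) and Pcsk5 (-1.99) were lowest.

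OPCs, the cells with the most Ntrk3, had 8 higher and 7 lower, with a median of 0.10, beside -0.06 for all genes (33.9% called). The adaptor Shc4 was 211 CPM in OPCs and 18.4 CPM or less in the other types (5.21 ± 0.17, log2 fold change ± SE, adjusted p = 2e-39, edgeR). Sorcs3 was 459 CPM (3.86) and Sorcs1 575 CPM (3.20). Sort1, which encodes sortilin, was 24.9 CPM in OPCs (-2.40) and 305 CPM in oligodendrocytes (1.91), where Sorcs1 was also highest (698 CPM, 3.50) and Gab1 was called (2.34).

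In the remaining types the leading genes were others. Plat, the tissue plasminogen activator, whose product plasmin cleaves proBDNF, led in endothelial (178 CPM, 3.07) and ependymal cells (106 CPM, 2.57) and was 0.8 CPM in microglia (-5.38). Microglia had Mef2c (1682 CPM, 3.72) and Sh2b2 (119 CPM, 3.63) as the highest of the list, and fibroblasts Pcsk5 (357 CPM, 2.77) and Shc1 (2.18).

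Across the regional groups 39 genes of the list were tested. In C1ql3 neurons 7 were higher and 1 lower (median -0.03, all genes 0.01, 19.1% called), and in Nwd2 neurons 6 were higher and 13 lower (median -0.07, all genes 0.03, 42.1% called). Pcsk5 was 308 ± 67.8 CPM in C1ql3 and 15.1 ± 23.3 CPM in Nwd2 neurons (2.72 ± 0.15 and -3.10 ± 0.26, log2 fold change ± SE). Lingo1 was 275 and 21.0 CPM in these groups (1.31 and -3.41). In Adarb2 neurons, where Ntrk3 was low, Shc3 was 427 CPM (1.67). Gab1 was highest in Nwd2 neurons (32.8 CPM, 2.33), followed by Rtn4r (1.12) and Bex3 (0.70). The Gad2 group had 10 higher and 1 lower (median 0.03, all genes -0.01, 13.8% called), with Pcsk5 (1.72), Lingo1 (1.06) and Sorcs3 (1.02) highest.

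Between the PVT subtypes 33 genes of the list were tested. Cadps2 neurons had 4 higher and 4 lower (median 0.07, all genes 0.03, 13.3% called). Gab1 (27.8 ± 20.1 CPM, 2.08), Pcsk6 (90.3 ± 29.9 CPM, 1.29) and Rtn4r (0.79) were highest there. Npas4 (-1.65), Mef2c (-1.08) and Pcsk5 (-0.73) were lowest. Col12a1 neurons had 1 higher, Pcsk5 (428 ± 94.0 CPM, 1.14), and 3 lower, Gab1 (-1.59), Rtn4r (-0.69) and Slitrk5 (-0.66), where 11.9% of all genes were called. In Npsr1 neurons Sorcs2 was higher (0.50) and Pcsk5 (-1.04) and Sorcs1 (-0.69) were lower (5.51% called). The neurons with none of the 3 markers had 3 higher, Sorcs1 (0.75), Pcsk5 (0.63) and Mef2c (0.62), and 4 lower, led by Gab1 (-1.20), Pcsk6 (-1.15) and Sorcs2 (-0.55), where 5.74% of all genes were called.

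In active against quiet C1ql3 neurons none of the 35 genes of the list that were tested was called with edgeR, Npas4 being left out because it defined the groups (median 0.03, all genes -0.02, 2.91% called), and 10 had an unadjusted p under 0.05. In female against male libraries, the genes called lower included Pcsk6 (-0.49) and Grb2 (-0.39) in neurons and Pcsk6 (-0.74) in astrocytes.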

How the data were processed

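Single nuclei from PVT punches were sequenced by the authors as 10x Genomics libraries. The deposited matrix holds raw UMI counts per gene symbol and nucleus, and per the labels' processing notes Cell Ranger 6.1.1 and mm10 were used, while the study's methods name another version of Cell Ranger. No source used here names the annotation. The authors removed doublets and nuclei of low quality, computed the percent of mitochondrial UMIs (at most 4.99% as deposited) and deposited cluster names, library and sex of each nucleus; 21 other columns of that table were not used. The 13 mitochondrial genes, counted only in female libraries, were left out. Symbols were used as deposited, and UMIs of overlapping genes cannot be told apart.

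UMIs were summed per library and class, leaving out any sum over fewer than 10 nuclei. Neurons with over 1000 genes went to the marker with the highest CPM relative to its mean over libraries, if it had at least 2 UMIs, a relative level of at least 1 and at least 2 times that of the next marker. The sums were tested with edgeR 4.0.16 (R 4.3.3; TMM, filterByExpr, quasi-likelihood test, library as a block except between sexes, Benjamini-Hochberg over all genes). The calls were an adjusted p under 0.05 and, except between sexes, a log2 fold change beyond 0.5. The script was tested on simulated data. Order tests used Python 3.11.15 and a pseudocount of 1 CPM. Libraries are pools, and p-values measure the spread between pools. Same-numbered female and male libraries are different pools and were not paired.

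The members and lists were chosen with earlier results of these data known. All members are named. Genes of the pathway list were to be named as the 3 called genes with the largest fold change in each direction and class, and the text gives a part of these; some genes are not reported here. The alternatives were other size factors (RLE), no filter, DESeq2 1.42.0, no library block, each library or either sex left out, larger sums, other marker rules and thinning.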

Additional observations from a re-analysis of the deposited data

Results flagged for a closer look

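The Ntrk2 level of ependymal cells in female replicate 1, 1283 CPM from 38 nuclei, stood far from the other 4 female libraries with at least 10 ependymal nuclei, which had 793 to 897 CPM. The male libraries had 508 to 746 CPM. Of 74 sets of libraries of 1 sex and class looked at for such a value, this was the only one found. By chance about 1 in 20 sets would show such a value.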

How the results depend on the processing

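The counts of calls below are sums over genes and classes. They were 32674 between cell types, 11913 between regional groups, 3220 between PVT subtypes, 313 between active and quiet neurons, and 2300 (neurons) and 1331 (astrocytes) between sexes. Without the filter on low counts, which tests more genes, there were 51495 calls between cell types and 4439 and 3303 between sexes. Between subtypes the female libraries alone gave 2017. Between active and quiet neurons there were 198 calls with DESeq2, 138 without the library block, 164 in the female libraries alone and 201 within the neurons with none of the 3 subtype markers. Without the library block the other counts were 30159 (cell types), 10074 (regions) and 2375 (subtypes), and the block changed no call of a member other than Bdnf in Npsr1 neurons. Leaving out each library in turn gave 30823 to 33494, 11661 to 12070, 2480 to 3472 and 281 to 320 calls in the first 4 comparisons. Between sexes it gave 1970 to 3938 in neurons and 918 to 2989 in astrocytes, the highest in both without male replicate 2. The cause of these shifts was not tested.

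No called fold change of a member turned its sign in any of the alternatives. In the male libraries alone, Ntrk3 in ependymal cells (-0.69, adjusted p = 0.139), Ntrk2 in fibroblasts (-1.13, adjusted p = 0.182) and Ntrk2 in OPCs (0.84, adjusted p = 0.103) were not called. Bdnf in OPCs was called lower without male replicate 3 (-1.72), Ntrk3 in Nwd2 neurons was called higher in the male libraries alone (0.53) and Ntrk2 in Npsr1 neurons with sums of at least 25 nuclei (0.61). The share of nuclei with a UMI moved with depth. For Ntrk2 it was 38.2% of neurons, 71.7% of astrocytes and 9.73% of oligodendrocytes at 1000 UMIs, and 88.4% of neurons without thinning. For Bdnf it was 4.28% of neurons at 1000 UMIs and, without thinning, 24.7% of neurons and 3.43% of astrocytes. With 381 and 22 UMIs, Ntf3 and Ngfr could not be tested by class after the filter, except Ntf3 between sexes in neurons.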
